A study of Mus musculus with 12 samples.

Results

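The Nduf genes encode most of mitochondrial complex I and several of the proteins that build it. They were taken as every row of the count table whose symbol begins with Nduf, which gave 46 of the 25171 loci. By role, 36 encode subunits of the complex, 8 are the Ndufaf assembly factors, and 2, Ndufa4 and Ndufa4l2, keep the name although their proteins are now placed outside complex I. The 36 subunits divide into 7 core subunits and 29 accessory ones. All 46 genes were high enough in counts to be tested in every comparison.

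Complex I, the NADH dehydrogenase, is the entry point of electrons from NADH into the respiratory chain. Electrons enter at the tip of its matrix arm, in the N module, pass along iron-sulfur clusters to the Q module, where ubiquinone is reduced, and drive proton pumping by the membrane arm. The core subunits of the matrix arm are nuclear Nduf genes and those of the membrane arm are the mt-Nd genes of the mitochondrial genome, while the accessory subunits surround both arms and assembly factors act on intermediates and leave the finished enzyme. Heart muscle, which contracts without rest on oxidative metabolism, is rich in the complex.

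RNA from 12 whole hearts was compared, with 3 mice in each of 4 groups. All groups carried a conditional transgene, loxP-stop-loxP-NOTCH2NLC-(GGC)98, at the Rosa26 site. EIIa-tg mice, called E2a in the labels, came from homozygous conditional parents and heterozygous EIIa-Cre parents and carried the Cre, which acts in all tissues, and were studied on postnatal day 30 with EIIa-ctl littermates that lacked the Cre. Both Myh6 groups came from the cross with homozygous Myh6-creERT2 mice, a line that drives a tamoxifen-dependent Cre in cardiomyocytes, and have the same genotype label. Myh6-tg mice received tamoxifen in corn oil at 75 mg/kg every other day from day 60, 3 injections in all, Myh6-ctl mice received corn oil, and hearts were taken on day 90. The transgene and tamoxifen itself cannot be told apart in this model, and the Esr1 values given with the depth leave creERT2 present or absent as a further difference between its groups. The comparisons ask how far the repeat changes heart transcripts when it is made everywhere or in cardiomyocytes.

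Depth was alike across hearts, between 38343106 and 50969834 counts, at which 3 counts amount to 0.0589 to 0.0782 CPM, a floor that covers counting error only. The lowest value of any Nduf gene in a heart was 3.01 normalised CPM, of Ndufaf6, so depth did not limit detection. Normalised CPM are counts relative to library size (CPM) after TMM scaling over the 12 hearts. The 8 brain markers summed to between 17.7 and 56.7 normalised CPM, Neurod6 was at 0 in all hearts, and the cardiac Myh6 itself ranged from 734 to 13896, so the labelled heart tissue holds although the extraction protocol in the labels names brain. Y-linked counts were between 4224 and 7307 in replicate 1 of every group and at most 2 elsewhere. In the Myh6 controls Esr1, whose sequence the creERT2 gene shares in part, was at 2331, 1384 and 1031 normalised CPM, against 1.30, 2.52 and 1.00 in the hearts labelled Myh6-tg and 0.408 to 1.23 in the EIIa hearts. The Myh6 groups therefore also differed in this transcript although their genotype label is the same, and its part in the results was not tested. Myh6-tg replicate 1 stood apart from the other Myh6-tg hearts in its summed cardiomyocyte markers, as given with the Myh6 results below.

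Promoters of some members with large and small changes are shown here as short stretches, so that the letters near their start sites can be compared. The stretch of Ndufaf1 runs 19 bases past its start site. RefSeq promoter windows on GRCm38.p6, from 250 bases before to 50 bases after a start site, were matched for 40 of the 46 genes. Ndufa2, Ndufa4l2, Ndufaf6, Ndufb9 and Ndufs1 were among those with no entry. Capitals mark a match to a motif that was searched on both strands, and each stretch is written on the strand of its gene. The first 2 hold the NRF1 motif, GCGCA and GCGC with any base between them, the third the GABP motif CCGGAAG, the fourth, on the opposite strand, the YY1 motif AANATGGC, and the last the ERR motif AAGGTCA. They are Ndufaf4 at chr4:24897940-24898009 (+), Ndufa11 at chr17:56717672-56717741 (+), Ndufaf1 at chr2:119662816-119662882 (-), Ndufb10 at chr17:24724584-24724651 (-) and Ndufb2 at chr6:39592354-39592420 (+).
Ndufaf4: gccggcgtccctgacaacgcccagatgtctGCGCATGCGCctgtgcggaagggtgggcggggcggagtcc
Ndufa11: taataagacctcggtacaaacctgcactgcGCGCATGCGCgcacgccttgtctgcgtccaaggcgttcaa
Ndufaf1: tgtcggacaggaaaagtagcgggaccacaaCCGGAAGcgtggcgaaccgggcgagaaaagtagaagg
Ndufb10: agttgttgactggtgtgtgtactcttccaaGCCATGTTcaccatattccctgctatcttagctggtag
Ndufb2: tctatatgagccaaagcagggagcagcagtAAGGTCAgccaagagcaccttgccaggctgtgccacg

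The motif of NRF1, a factor known for nuclear genes of the respiratory chain, was in 9 of the 40 promoters, or 22.5%, against 5.19% of all 27025 genes with a window and 7.17% of the protein-coding ones. The YY1 motif was in 14 of 40, or 35%, against 6.96% and 7.46%. The GABP motif was in 6, or 15%, against 9.93% of all genes and 12.95% of the protein-coding ones, and the ERR motif in 3, or 7.5%, against 5.38% and 4.73%. The YY1 motif contains ATG, and 8 of its matches, at positions 11 to 39 after the start site, read AAGATGGC on the strand of the gene. Among the 7 assembly factors with a window, Ndufaf4 and Ndufaf5 held the NRF1 motif and Ndufaf1 and Ndufaf8 the GABP motif. Ndufaf4 and Ndufa11 share all 10 letters of the NRF1 match and had log2 fold changes of -1.44 and -0.63 in Myh6-tg. These matches are descriptions of letters and not of binding.

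Levels of different genes were compared in FPKM, which the authors scaled to length. By this measure subunits stood above assembly factors. In EIIa-ctl the 8 factors lay between 11.5 ± 1.05 FPKM (SD, n = 3) for Ndufaf7, an arginine methyltransferase, and 23.5 ± 1.79 for Ndufaf1, while the lowest subunit, Ndufc1, was at 39.3 ± 3.87. In every one of the 12 hearts the lowest subunit was above the highest factor in FPKM. This full separation did not hold for normalised CPM per kilobase of annotated exon, by which 1 to 4 subunits, always with Ndufb2 the lowest, were below the highest factor in each heart. The median subunit was 9.09 to 12.01 times the median factor in FPKM and 7.03 to 9.70 times per kilobase of exon. The 2 came closest in Myh6-tg replicate 3, where the lowest subunit was at 12.1 FPKM and the highest factor at 10.7. The median subunit was at 128, 150 and 152 FPKM in the EIIa-ctl hearts and at 128, 138 and 115 in the EIIa-tg hearts. It was at 119, 154 and 114 in Myh6-ctl and at 102, 81.3 and 72.5 in Myh6-tg. The median factor was at 11.1, 14.8 and 13.99 FPKM in the EIIa-ctl hearts and at 10.7, 14.5 and 10.1 in the EIIa-tg hearts. It was at 11.6, 14.2 and 12.4 in Myh6-ctl and at 9.65, 8.27 and 7.98 in Myh6-tg.

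**Figure D1:**
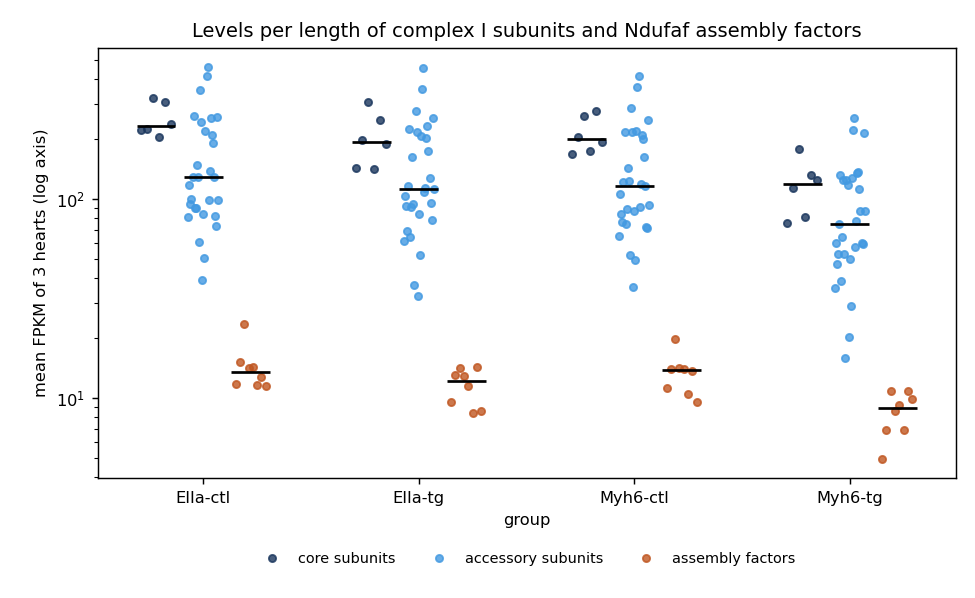
Mean FPKM of 35 of the 36 subunits and the 8 factors over the 3 hearts of a group, on a log axis, with core subunits (dark blue), accessory subunits (light blue) and Ndufaf assembly factors (orange), with a black line at each median. In each group all assembly factors lie below all subunits, from 11.5 to 23.5 FPKM in EIIa-ctl, where the lowest subunit is at 39.3.

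In the EIIa model the response of complex I genes was shallow and uneven. Of the 46 genes, 10 fell in EIIa-tg at an adjusted p under 0.05 (edgeR quasi-likelihood test) and none rose, where 17% of the 14908 loci tested were called, 8.3% as lower and 8.65% as higher. By role, 9 of 36 subunits and 1 of 8 factors fell. The median log2 fold change was -0.37 over the subunits and -0.49 over the factors, beside 0.02 over all loci tested. Of the 46 values 45 were below 0, against 48.6% of all loci, and 30 genes had all EIIa-tg hearts below all EIIa-ctl hearts, against 20.8%. None reached the thresholds of the study, an adjusted p under 0.01 with a log2 change of at least 1, in this edgeR fit. In it 0% of all loci did. With DESeq2, the program of the study, 0 Nduf genes reached them, while 272 of 19471 loci were lower at these thresholds. At an unadjusted p under 0.05, 26 genes were lower in the edgeR fit, against 17.4% of all loci.

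The number of calls depended on single hearts. When EIIa-ctl replicate 1 or 3 or EIIa-tg replicate 1 or 3 was left out no Nduf gene was called, without EIIa-ctl replicate 2 there were 3, and without EIIa-tg replicate 2 there were 25. With all 12 hearts in one fit none was called, and with a term for Y-linked counts 3 were. The calls over all loci moved alike, from 2527 to between 0 and 4079. With scaling by library totals alone the median of all loci was 0.21, which put the subunits at -0.18 and left 33 of 46 values below 0 and 7 calls.

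Ndufaf1, which starts the MCIA complex that assembles the membrane arm, had the largest fall of the 46 genes in this model. It was at 39.1, 34.3 and 41.9 normalised CPM in EIIa-ctl and at 18.1, 24.3 and 17.5 in EIIa-tg. All EIIa-tg hearts were below all controls, and the level was 1.92-fold lower (log2 fold change -0.94 ± 0.15 (SE), 95% interval -1.30 to -0.59, edgeR adjusted p = 0.0166). In the 6 fits that left out 1 heart, it was called in 2.

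The other 7 factors did not pass the test in EIIa-tg. Ndufaf2, the late factor related to Ndufa12, was at -0.65 ± 0.21 (SE, adjusted p = 0.0655) and Ndufaf7 at -0.62 ± 0.19 (adjusted p = 0.0555). Ndufaf6, which acts early on the ND1 part, was at -0.50, Ndufaf5, which hydroxylates an arginine of Ndufs7, at -0.49, and Ndufaf4, a Q module factor, at -0.41. The lowest adjusted p of these 3 was 0.0633. Ndufaf8, the partner of Ndufaf5, was at -0.21 and Ndufaf3, the partner of Ndufaf4, at -0.04, each with groups that overlapped. The factors ranged from -0.94 to -0.04.

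All 7 core subunits had EIIa-tg hearts wholly below the controls, and 4 passed the test. Ndufs1, the largest iron-sulfur subunit of the N module, was at 707, 569 and 698 normalised CPM in EIIa-ctl and at 343, 494 and 273 in EIIa-tg, a 1.78-fold lower level (-0.83 ± 0.22, adjusted p = 0.0369). Ndufs8, an iron-sulfur subunit of the Q module, was at 222, 214 and 238 in EIIa-ctl and at 117, 180 and 108 in EIIa-tg (-0.73 ± 0.19, adjusted p = 0.0368). In both genes EIIa-tg replicate 2 lay between the controls and the other EIIa-tg hearts. Ndufs3, a Q module subunit, was called at -0.52 (adjusted p = 0.0460). Ndufs7, at -0.48, and the flavin and NADH site subunit Ndufv1, at -0.26, with Ndufv2 between them at -0.39, did not pass.

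Among accessory subunits the median was -0.38 over the 9 of the matrix arm and -0.21 over the 19 of the membrane arm, and the difference was not tested. In the matrix arm Ndufs4, whose loss in mice causes a Leigh-like encephalopathy, was at 156, 148 and 159 normalised CPM in EIIa-ctl and 93.7, 120.0 and 84.0 in EIIa-tg (-0.64 ± 0.14, adjusted p = 0.0248), and Ndufa12 was called at -0.64. In the membrane arm Ndufb2 was at 59.6, 61.8 and 64.1 normalised CPM in EIIa-ctl and 36.0, 47.9 and 25.6 in EIIa-tg (-0.76 ± 0.20, adjusted p = 0.0393), and Ndufb10 was called at -0.54. Ndufab1, the mitochondrial acyl carrier protein that sits in both arms, was also called, at -0.64 (adjusted p = 0.0345). At the other end were small membrane subunits, with Ndufa1 at 0.04, Ndufb6 at -0.01 and Ndufb11 at -0.03, all with overlapping groups. The 95% intervals of these 3 reached no lower than -0.30.

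**Figure D2:**
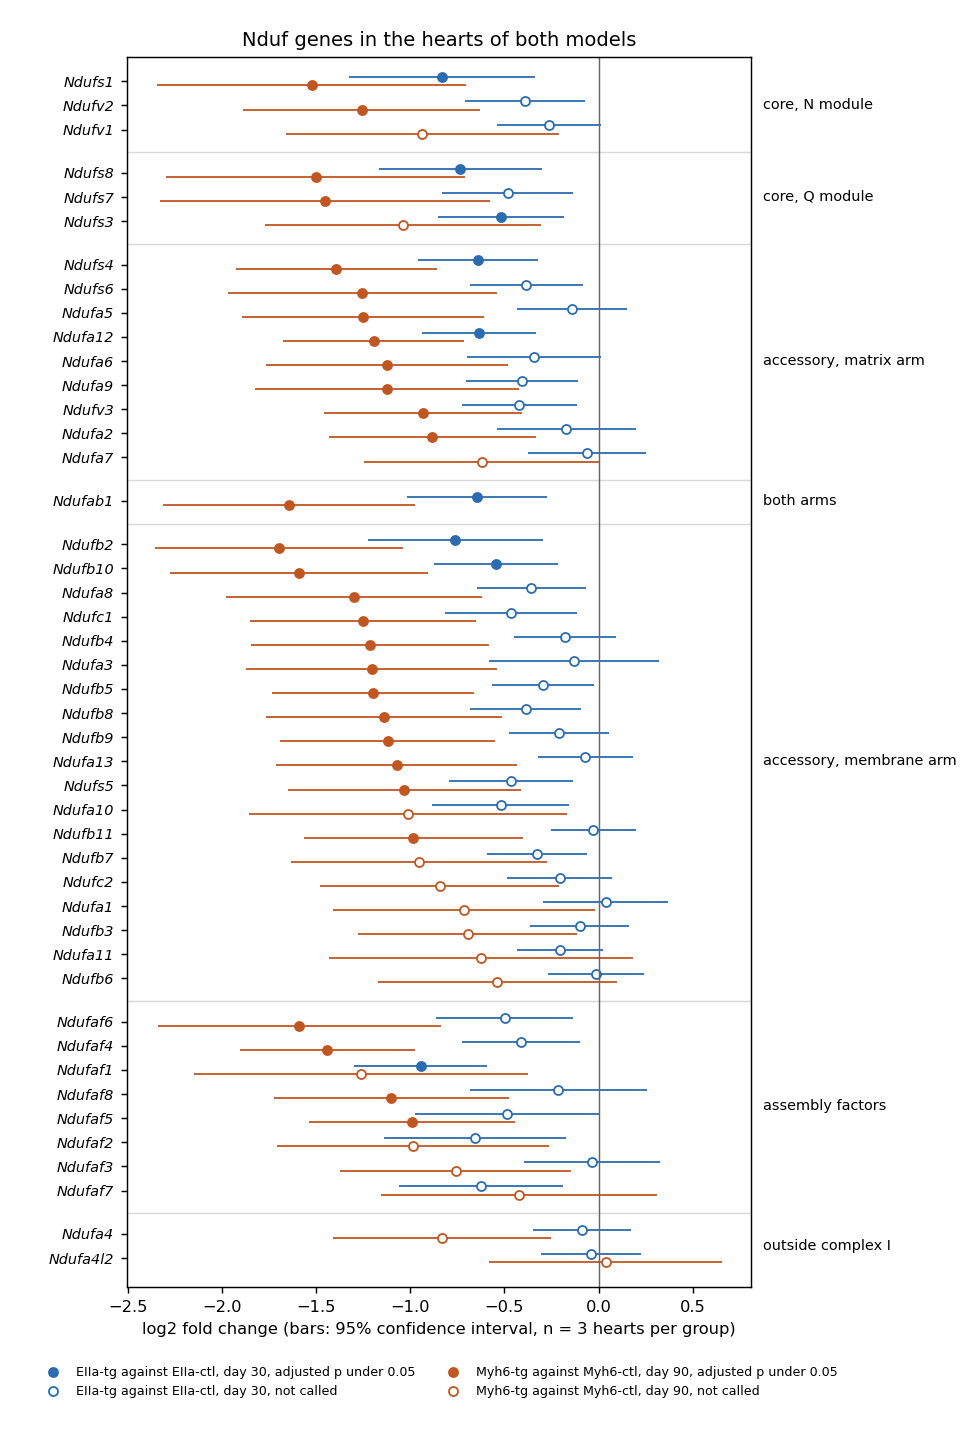
Log2 fold change of 45 of the 46 Nduf genes with its 95% confidence interval, ordered by role, in EIIa-tg against EIIa-ctl (blue) and Myh6-tg against Myh6-ctl (orange); filled points have an adjusted p under 0.05 and open points do not. Filled points number 9 in EIIa and 29 in Myh6, all left of 0, and Ndufa4l2 at the bottom sits at 0 in both models.

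In the Myh6 model the fall was broader and larger. Of the 46 genes, 29 fell in Myh6-tg and none rose, where 18.3% of the 15298 loci tested were called, 9.38% as lower and 8.96% as higher. They were 25 of 36 subunits and 4 of 8 factors. The median log2 fold change was -1.12 over the subunits, -1.05 over the factors and 0.03 over all loci. All values except that of Ndufa4l2 were below 0, against 47.9% of loci, and 39 genes had groups that did not overlap, against 19.6%. At the thresholds of the study 3 genes were called, Ndufb2, Ndufaf4 and Ndufs4, against 2.05% of loci. The same thresholds called 30 with DESeq2, against 6.19% of the loci it tested. They called 25 with all 12 hearts in one fit, where 1107 of 15929 loci were lower. With the replicate number as a block they called 16, against 3.6%. With this block, whose use is described with the processing, 38 genes were called at an adjusted p under 0.05, where 20.9% of loci were, 11.2% as lower.

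Here too single hearts weighed on the count. It was 5 without Myh6-ctl replicate 1 or Myh6-tg replicate 3, 6 without Myh6-tg replicate 2 and 10 without Myh6-ctl replicate 2, while without Myh6-tg replicate 1 it was 36. The calls over all loci moved too, from 2805 to 798, 969, 982 and 1755 in the first 4 of these fits and to 4269 in the last. Totals alone put the median of all loci at 0.43, the subunits at -0.72 and the count at 20, with the same 45 values below 0.

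The hearts of Myh6-tg were graded. The median ratio of the 36 subunits to the Myh6-ctl mean was -0.88, -1.08 and -1.47 (log2) in replicates 1, 2 and 3, and that of the 8 factors -0.65, -1.15 and -1.36. The controls varied as well, with subunit medians of -0.03, 0.38 and -0.44. In EIIa-tg the subunit medians were -0.27, -0.26 and -0.61. Summed over the 36 subunits, the level was 7990, 7623 and 8554 normalised CPM in EIIa-ctl, 6166, 6828 and 5107 in EIIa-tg, 7190, 8613 and 5280 in Myh6-ctl, and 4171, 3038 and 2355 in Myh6-tg. All Myh6-tg hearts were thus below every other heart in this sum.

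**Figure D3:**
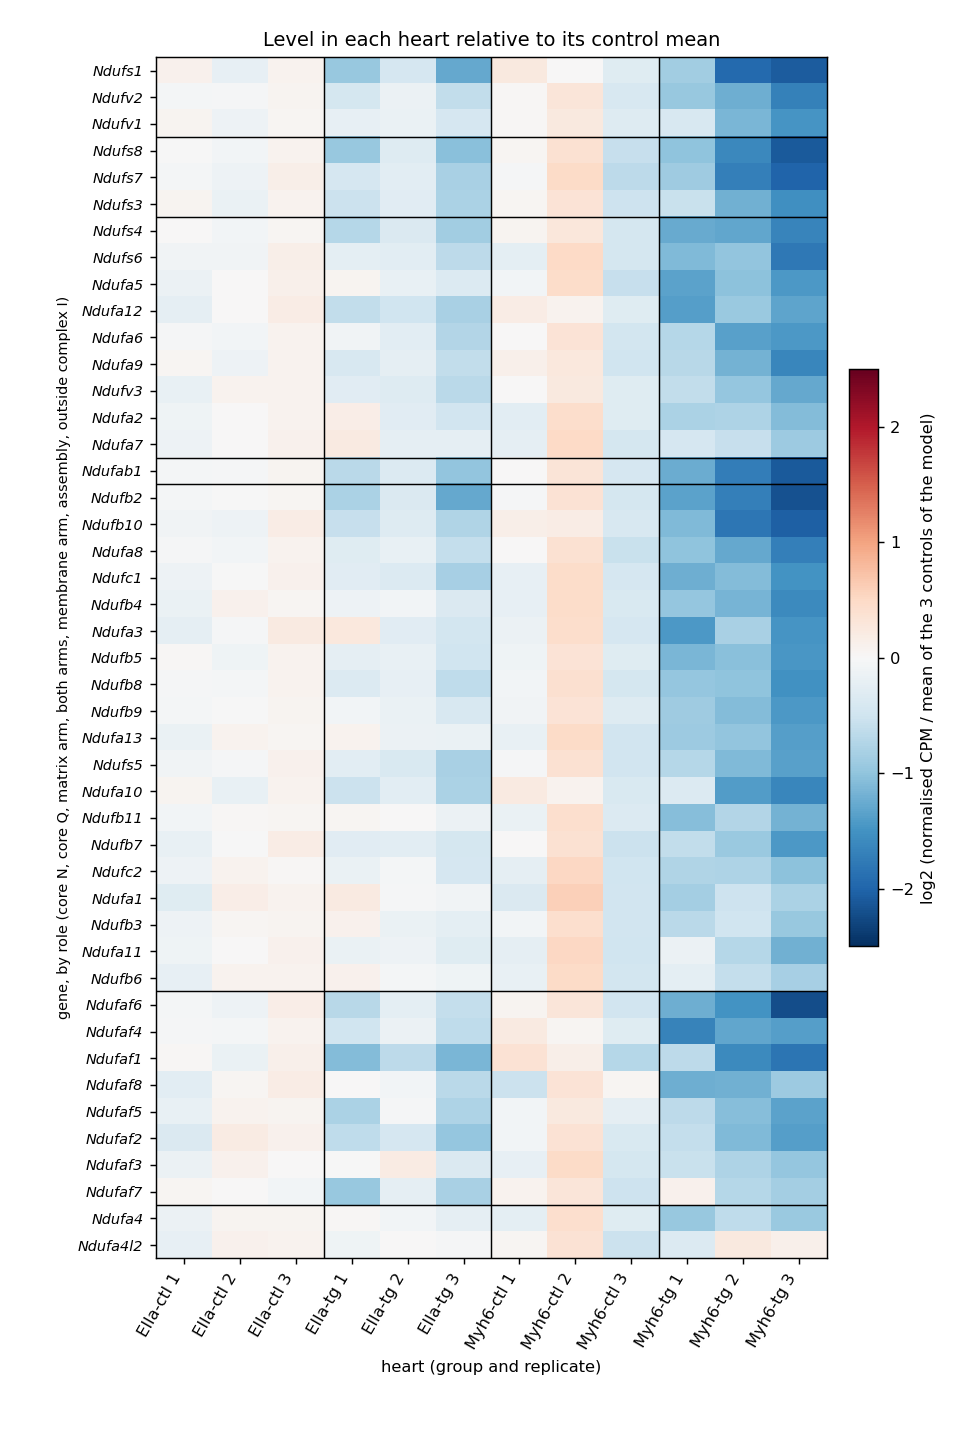
Log2 ratio of the normalised CPM of 45 of the 46 Nduf genes in each heart to the mean of the 3 controls of its model (red higher, blue lower), with genes ordered by role and hearts by group. Myh6-tg hearts are blue over nearly all genes, with subunit medians of -0.88, -1.08 and -1.47, and EIIa-tg hearts are paler, with subunit medians of -0.27, -0.26 and -0.61.

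Ndufaf4 had the lowest p of the 46 genes in Myh6-tg. Its level was 66.1, 58.6 and 46.0 normalised CPM in Myh6-ctl and 17.9, 23.1 and 21.9 in Myh6-tg, with a wide gap between the groups and Myh6-tg replicate 1 the lowest heart. This was 2.71-fold lower (-1.44 ± 0.20, 95% interval -1.91 to -0.97, edgeR adjusted p = 0.00561), and the gene was called in all 6 fits that left out a heart. Ndufaf6 fell further, at 14.6, 17.3 and 10.04 in Myh6-ctl and 5.98, 4.97 and 3.01 in Myh6-tg (-1.59 ± 0.32, adjusted p = 0.0165). Ndufaf8 at -1.10 and Ndufaf5 at -0.99 were also called, so that in this model both partners of the Ndufs7 hydroxylation pair fell.

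The remaining factors did not pass. Ndufaf1 was at 41.8, 35.8 and 19.7 normalised CPM in Myh6-ctl and 20.6, 10.8 and 9.14 in Myh6-tg. Myh6-ctl replicate 3 lay below Myh6-tg replicate 1, and the difference of -1.26 ± 0.38 had an adjusted p of 0.0562, or 0.0104 with the replicate block. Ndufaf2 was at -0.99 and Ndufaf3 at -0.76. Ndufaf7 was at 22.6, 26.2 and 14.8 normalised CPM in Myh6-ctl and 22.8, 12.95 and 11.7 in Myh6-tg, which overlap, and its -0.42 ± 0.32 (adjusted p = 0.388) ran from -0.79 to 0.03 over the alternative fits.

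**Figure D4:**
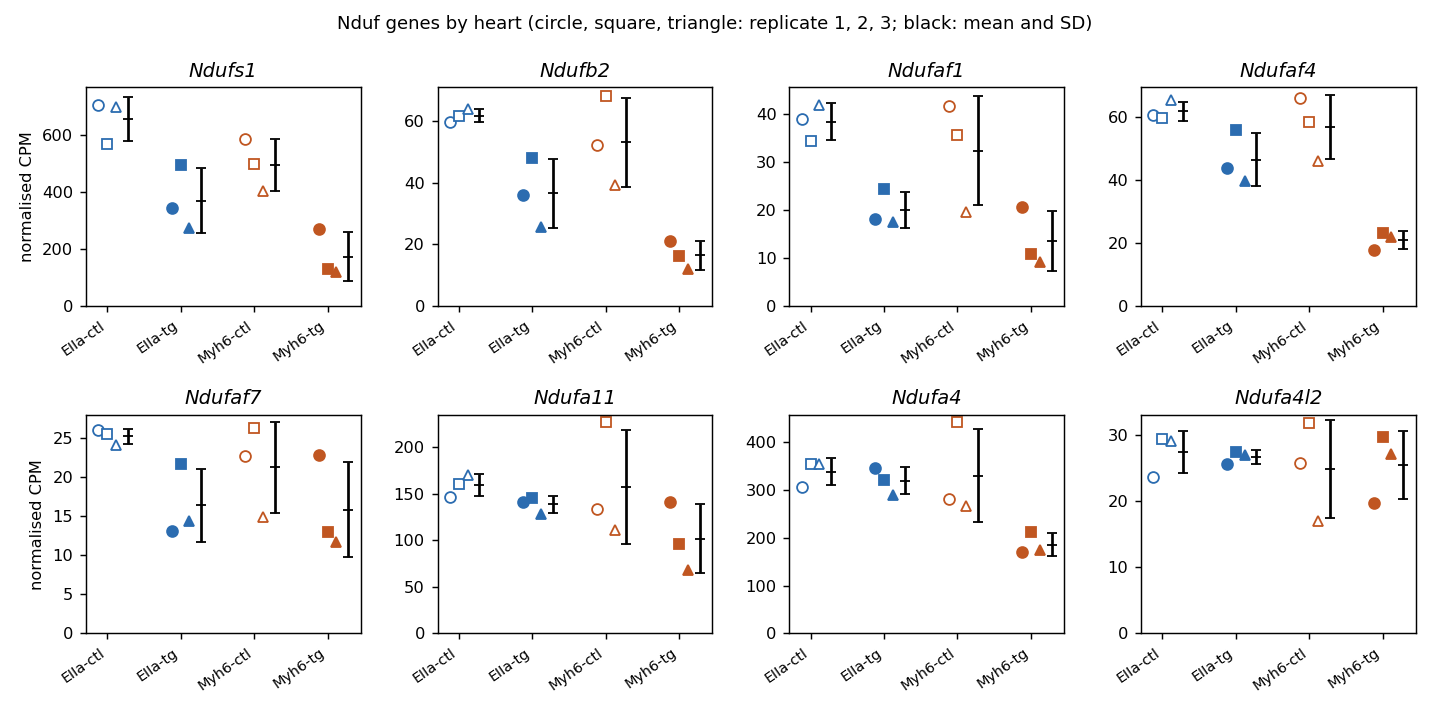
Normalised CPM of 8 Nduf genes in each of the 12 hearts, with marker shapes for replicates 1, 2 and 3, open markers for controls, filled ones for transgenic hearts, and black bars for the mean and SD. Ndufaf4 in Myh6-tg lies between 17.9 and 23.1, below all other hearts, while Ndufa4l2 in Myh6-tg lies between 19.7 and 29.7, within the range of Myh6-ctl.

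Of the 7 core subunits, 4 fell in Myh6-tg. Ndufs1 was at 585, 499 and 403 normalised CPM in Myh6-ctl and 271, 129 and 117 in Myh6-tg, 2.87-fold lower (-1.52 ± 0.35, adjusted p = 0.0247). Ndufs8 at -1.50, Ndufs7 at -1.45 and Ndufv2 at -1.26 were also called, and in all 7 genes the groups did not overlap. Ndufs3 at -1.04 and Ndufv1 at -0.94 did not pass (adjusted p = 0.0578 and 0.0753), and did so with the replicate block (0.0215 and 0.0309).

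Of the accessory subunits, 8 of 9 in the matrix arm and 12 of 19 in the membrane arm fell, with medians of -1.12 and -1.07. Ndufb2 was at 52.1, 68.2 and 39.2 normalised CPM in Myh6-ctl and 21.1, 16.3 and 11.8 in Myh6-tg, the largest fall of all 46 genes at 3.24-fold (-1.70 ± 0.28, adjusted p = 0.00945). Its exons share bases with 1 gene on the same strand, Gm42420, and with Braf and Gm16272 on the other. Ndufab1 was at 225, 280 and 167 in Myh6-ctl and 95.2, 67.3 and 52.3 in Myh6-tg, 3.13-fold lower (-1.65 ± 0.29, adjusted p = 0.0111). Ndufb10 was 3.01-fold lower (adjusted p = 0.0130) and Ndufs4 2.63-fold lower (adjusted p = 0.00924). Ndufs4, Ndufb2 and Ndufab1 were called in all 6 fits that left out a heart.

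The smallest changes were again in the membrane arm and in Ndufa7, a matrix arm subunit. Ndufb6 was at 61.9, 97.2 and 51.2 normalised CPM in Myh6-ctl and 58.9, 46.5 and 39.4 in Myh6-tg, which overlap (-0.54 ± 0.27, adjusted p = 0.208). Ndufa7 was at -0.62, Ndufa11 at -0.63 and Ndufa1 at -0.71, none of them past the test. Ndufa11, with the NRF1 match shown above, was at 141 in Myh6-tg replicate 1, higher than in Myh6-ctl replicates 1 and 3 at 134 and 111.

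The 2 genes whose proteins lie outside complex I had unlike changes in Myh6-tg, and neither was called in the main fit. Ndufa4, now assigned to cytochrome c oxidase, was at 281, 443 and 267 normalised CPM in Myh6-ctl and 170, 212 and 174 in Myh6-tg (-0.83 ± 0.25, adjusted p = 0.0554, or 0.0278 with the replicate block). Its paralogue Ndufa4l2, which is induced by hypoxia in other cells, was at 25.8, 31.8 and 17.1 in Myh6-ctl and 19.7, 29.7 and 27.1 in Myh6-tg. The change of Ndufa4l2 was 0.04 ± 0.27 (adjusted p = 0.942), with a 95% interval of -0.58 to 0.66. In FPKM the ratio of Ndufa4l2 to Ndufa4 was 6.01%, 4.69% and 4.17% in Myh6-ctl and 7.56%, 9.10% and 10.1% in Myh6-tg, so that the groups did not overlap. The log2 ratio in normalised CPM was higher by 0.86 in Myh6-tg (exact permutation test, two-sided p = 0.10, the smallest that 3 against 3 hearts allow), and by 0.05 in EIIa-tg (exact p = 0.70). The change of Ndufa4l2 in Myh6-tg was near the median of 0.03 over all loci. The higher ratio thus went with the lower Ndufa4, and a typical locus set against Ndufa4 would give a similar rise. The 2 genes in EIIa-tg were at -0.09 and -0.04. The exons of Ndufa4l2 overlap those of Shmt2 on the other strand, and reads of the 2 could not be told apart if counting ignored strand.

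Between models, 7 genes were called in both, namely Ndufa12, Ndufab1, Ndufb2, Ndufb10, Ndufs1, Ndufs4 and Ndufs8, which are 70.0% of the EIIa calls and 24.1% of the Myh6 calls. The difference itself was tested in all 12 hearts, as the change in Myh6-tg minus that in EIIa-tg. Of the 46 differences 44 were below 0, against 52.9% of the 15929 loci tested, with a median of -0.76 over the subunits and -0.62 over the factors. Only Ndufaf4 passed, at -1.03 ± 0.24 (95% interval -1.55 to -0.51, edgeR adjusted p = 0.0344), where 3.92% of loci were called, 2.27% as lower. At an unadjusted p under 0.05, 25 genes differed, all of them lower, against 19.4% of loci, 10.8% as lower. After Ndufaf4 the lowest p values belonged to Ndufb11 (-0.96 ± 0.27, adjusted p = 0.0749) and Ndufb5 (-0.91 ± 0.26, adjusted p = 0.0750), both membrane subunits. The number called was 0 in the fits without any single EIIa-ctl heart, without EIIa-tg replicate 1 or 2, without Myh6-ctl replicate 1 or 2 and without Myh6-tg replicate 2 or 3. It was 7 without Myh6-ctl replicate 3 and 14 without Myh6-tg replicate 1. Over all loci, 615 and 1727 were called in these 2 fits, against 624 in the main fit and 293 to 605 in the fits with 0 Nduf calls.

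Ndufaf1 and Ndufs3 were called in EIIa-tg and not in Myh6-tg. Ndufaf1 differed by -0.32 ± 0.44 and Ndufs3 by -0.52 ± 0.37, and the 95% interval of each included 0. Ndufaf7 was the factor with the opposite sign, at 0.20 ± 0.40. Age, the cell types that express the transgene, its duration and tamoxifen differ between the models and cannot be told apart.

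In the controls no Nduf gene differed between Myh6-ctl on day 90 and EIIa-ctl on day 30 by edgeR, none did at an unadjusted p under 0.05 and none by DESeq2. These groups also differ in cross, corn oil and the level of Esr1, which cannot be told apart from age. Of the 14990 loci 0.0334% were called and 11.3% had an unadjusted p under 0.05. The median change was -0.13 over the subunits and -0.09 over the factors. The lowest p values belonged to Ndufs1 (-0.41 ± 0.18, adjusted p = 0.444), Ndufv1 (-0.30 ± 0.18) and Ndufs4 (-0.31 ± 0.18). The subunit median was 0.04 without Myh6-ctl replicate 3 and -0.39 without Myh6-ctl replicate 2. In the latter fit all 46 values were below 0 and 19 had an unadjusted p under 0.05, with none called.

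The members varied with a property the choice of genes did not use. Exon length here counts every base in any annotated exon of the gene, so it can exceed the length of a single transcript. Across the 36 subunits, the log2 fold change went with the log2 of this exon length. The Pearson correlation was -0.64 and the Spearman -0.60 in EIIa, and -0.49 and -0.38 in Myh6. Over all loci with an annotated length these Pearson correlations were -0.12 (13885 loci) and 0.003 (14188 loci). The points share libraries and fits, so no test was made. The 18 subunits with the shorter exons, 419 to 1569 bases, had a median change of -0.21 in EIIa and -1.10 in Myh6. The 18 longer ones, 1718 to 8086 bases, had -0.41 and -1.13. Length also went with the difference between the controls, at -0.42, and not with the difference between models, at 0.03. What part length has in the fold changes was not tested.

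**Figure D5:**
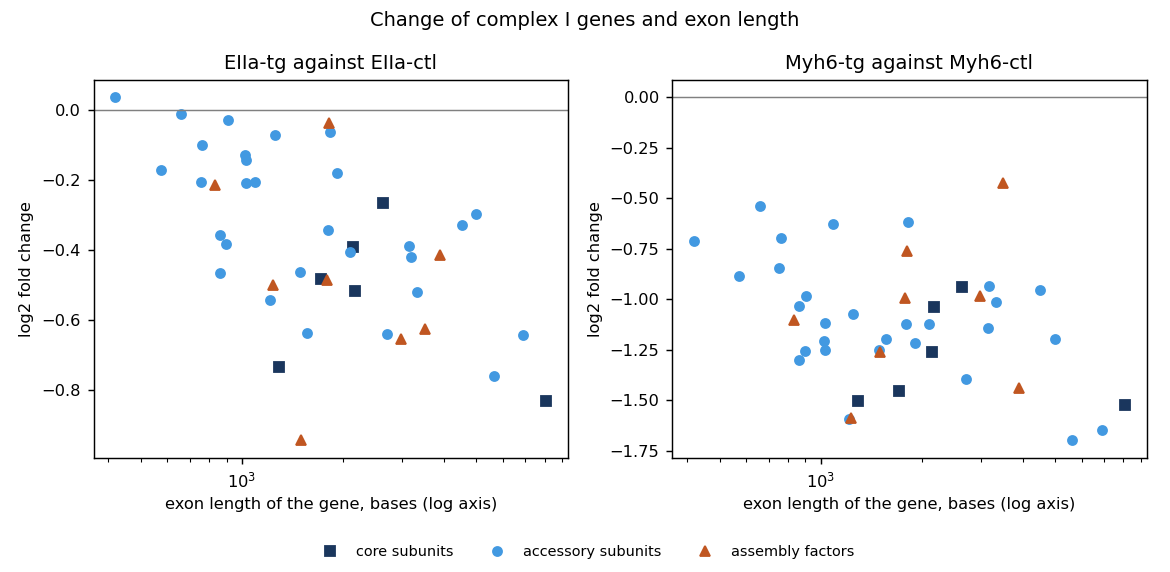
Log2 fold change of 35 of the 36 subunits and the 8 factors against the exon length of its gene on a log axis, in EIIa-tg (left) and Myh6-tg (right), for core subunits (squares), accessory subunits (circles) and assembly factors (triangles). Across all 36 subunits the Pearson correlation is -0.64 in EIIa and -0.49 in Myh6.

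Other genes of the pathway were counted against the 8.3% and 9.38% of all loci called lower in EIIa-tg and Myh6-tg. Of 10 measured assembly factors without the Nduf name, 5 fell in EIIa-tg, and the 10 values ran from -0.92 for Foxred1 to -0.17 for Dmac1, which was not called, with a median of -0.50. In Myh6-tg 6 fell, and the 10 values ran from -1.20 for Tmem126b, a partner of Ndufaf1, to -0.45 for Dmac1, again not called, with a median of -0.94. Of the 7 mt-Nd subunits 1 fell in EIIa-tg and 5 in Myh6-tg, with medians of -0.42 and -1.35. Complex II had 0 of 4 and 4 of 4 genes lower, complex III 1 of 9 and 5 of 9, and ATP synthase 1 of 16 and 9 of 16. In EIIa-tg these shares were near that of all loci, with medians of -0.38, -0.45 and -0.25, and in Myh6-tg the medians were -1.21, -1.20 and -1.10. None of these genes rose in either model. The Nduf medians of -1.12 and -1.05 in Myh6-tg lay beside those of the other complexes.

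Beside these genes, markers of some cell types also differed between the groups. The 10 cardiomyocyte markers summed to between 35501 and 43784 normalised CPM in EIIa-ctl and between 19583 and 31586 in EIIa-tg. They were at 34391, 34038 and 28812 in Myh6-ctl and at 25867, 10555 and 8631 in Myh6-tg, where replicate 1 stood near the controls. Of the 10, 2 were called lower in EIIa-tg and 5 in Myh6-tg, where the 10 values ran from -2.60 for Myh6 to 0.58 for Actn2, which was not called. The 8 fibroblast markers summed to 1476 to 2157 in EIIa-ctl, 2744 to 3949 in EIIa-tg, 1966 to 2530 in Myh6-ctl and 3300 to 8134 in Myh6-tg, with 2 and 4 called higher. In Myh6-tg the 8 values ran from -0.79 for Lum, the 1 below 0, to 4.23 for Postn. The 8 leukocyte markers rose in EIIa-tg, from 423 to 660 in the controls to 927 to 1203, all 8 called, and were at 803 to 1361 in Myh6-ctl and 910 to 2130 in Myh6-tg, none called. In Myh6-tg 2 of these 8 were below 0, the lowest Adgre1 at -0.60. The 7 endothelial markers had medians of -0.21 in EIIa-tg and -0.40 in Myh6-tg, with 2 and 0 called lower. Relative to the cardiomyocyte sum, the subunit sum was 19.5% to 21.5% in EIIa-ctl and 21.6% to 29.1% in EIIa-tg. It was 18.3% to 25.3% in Myh6-ctl and 16.1% to 28.8% in Myh6-tg. The cardiomyocyte sum is weighted to abundant transcripts. Myh6 alone had means of 12395, 4885, 9099 and 1505 normalised CPM in these groups, in this order. Of the 10 markers, 9 were below 0 in EIIa-tg and 7 in Myh6-tg. The ratio therefore also moves with the level of Myh6 itself. Fewer cardiomyocytes and less RNA of these genes per cardiomyocyte cannot be told apart in whole hearts.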

How the data were processed

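According to the methods of the study, heart RNA was made into NEBNext Ultra libraries, read from both ends (NovaSeq) and aligned by Hisat2 to the GRCm38 build. The submitters' processing notes name HISAT2 2.0.4, StringTie 2.2.1, DESeq2 and both GRCm39 and mm10. The authors deposited counts, whole numbers of reads per locus without normalization, and FPKM, scaled to transcript length and depth; the counting program, annotation and strand setting are not given in the sources used here. Positions, exon lengths and overlaps came from GENCODE M21 (GRCm38), where 22022 loci and all 46 members had an entry; 19 members have an exon that overlaps an exon of another gene. The 3135 loci the authors named NewGene have no symbol.

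Groups came from sample titles; the genotype tags of EIIa-tg replicates 2 and 3 differ from replicate 1. Counts passed filterByExpr, received TMM factors and went into the quasi-likelihood test of edgeR 4.0.16 (glmQLFit, then glmQLFTest; R 4.3.3) in the 6 hearts of each comparison, or all 12 for the difference between models, with Benjamini-Hochberg adjustment over all loci tested. A gene was called at an adjusted p under 0.05. The test was run first on simulated data with known changes, drawn without effects of replicate or cell type. That run does not bear on how the calls depend on single hearts. Titles call the replicates biological and number them 1 to 3 in each group. Deviations of same-numbered hearts from their group means correlated at 0.264, 0.220 and 0.248 in the Myh6 pairs. They correlated at 0.136, -0.138 and -0.114 in the EIIa pairs. The main fits used no pairing. Values with the replicate block, an alternative fit, are given beside the main ones for single genes in the Myh6 model only. The pairing was seen in these same data and is not stated in the labels, so calls gained with the block are descriptions and no independent evidence.

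Named with values are all Ndufaf genes, the 7 nuclear core subunits, Ndufa4, Ndufa4l2 and Ndufab1, the accessory subunits with the 3 lowest and 3 highest changes in Myh6-tg and the 2 lowest and 2 highest in EIIa-tg, and the 3 genes with the lowest p of the difference between models and between controls. Of these, 1 gene is counted with its groups and not reported here. Other members are named where a count rests on them, chosen after their values were seen. The printed promoters and motifs were also chosen with the results known. The members and lists were chosen with earlier results of these data known. Alternatives were RLE factors, totals alone, DESeq2 1.42.0, other filters, all 12 hearts, the replicate block, a term for Y-linked counts, removal of the mt- or NewGene loci, limma 3.58.1 on log2(FPKM + 1) or log2(FPKM + 0.1), and leaving out each heart. The transgene transcript was not analysed here.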

Additional observations from a re-analysis of the deposited data

Results flagged for a closer look

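Ndufaf4 was marked because its change differed between the models by a test of the difference itself, at -1.03 on the log2 scale (SE 0.24, edgeR adjusted p = 0.0344). It was -1.44 in Myh6-tg and -0.41 in EIIa-tg, with all 3 Myh6-tg hearts below all other hearts. The difference stayed below 0 in all alternatives, between -1.17 and -0.72, with adjusted p values from 0.00442 to 0.101. It passed the test in 3 of the 12 fits that left out 1 heart and in 8 of the other 12 fits. In the main fit Ndufaf4 was the only call among 46 Nduf genes, where 3.92% of the 15929 loci were called, 2.27% as lower. A count of 1 among 46 is near these shares.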

How the results depend on the processing

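In EIIa-tg, 10 Nduf genes were called. The count was 0 at the thresholds of the study, 0 with all 12 hearts in one fit, 0 with limma on log2(FPKM + 1) without a filter, 3 with a term for Y-linked counts and 23 with DESeq2, and ran from 0 to 25 when 1 heart was left out. In Myh6-tg, 29 were called, with 3 at the thresholds of the study, 15 with limma on log2(FPKM + 1) without a filter, 38 with DESeq2, 40 with all 12 hearts in one fit and 5 to 36 with 1 heart left out. For the difference between models, 1 gene was called, with 0 at the thresholds of the study, 0 with library totals alone, 0 in each limma fit, 8 with DESeq2 and 0 to 14 with 1 heart left out. Calls over all loci moved too. In EIIa-tg they went from 2527 to 1 with limma without a filter, 227 with all 12 hearts, 1680 with the Y-linked term and 3536 with DESeq2. In Myh6-tg they went from 2805 of 15298 to 3393 of 20052 with limma without a filter. They were 3870 of 20011 with DESeq2 and 5049 of 15929 with all 12 hearts. For the difference they went from 624 to 1395 with DESeq2 and ran from 293 to 1727 with 1 heart left out. The causes were not tested.

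With the replicate number as a block, 0 genes were called in EIIa-tg, 38 in Myh6-tg and 2 for the difference between models. Over all loci the block called 1, 3204 and 650. In the EIIa model the deviations did not pair the same-numbered hearts, although Y-linked counts mark replicate 1 of both groups. The block changed 9 calls in Myh6-tg, all of them gained, including Ndufa10, Ndufb3, Ndufb7 and Ndufc2.

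Scaling moved the medians. Library totals alone gave -0.18 over the subunits in EIIa-tg and -0.72 in Myh6-tg, and -0.64 over the factors in Myh6-tg. The mt- genes held 31.8% to 38.3% of counts in Myh6-ctl and 15.5% to 18.6% in Myh6-tg. They held 34.2% to 36.7% in EIIa-ctl and 28.5% to 32.3% in EIIa-tg. The part of this composition in the shift with library totals was not tested. The limma fits gave -0.18 over the subunits in EIIa-tg, -0.72 in Myh6-tg, -0.59 or, with 0.1 added, -0.63 over the factors in Myh6-tg and, over the factors for the difference, -0.34 with 1 added and -0.37 with 0.1 added. Of all loci called, the share that was lower went from 49.0% to 20.2% in EIIa-tg, from 51.2% to 21.3% in Myh6-tg and from 57.9% to 41.1% for the difference with library totals alone. The factor median in EIIa-tg ran from -0.72 to -0.39 with 1 heart left out, and in the controls the subunit median ran from -0.39 to 0.04 and the factor median from -0.21 to 0.03. Of 1674 alternative values of named genes, 148 lost a call, 59 gained one and none reversed a called direction. The 1674 include values of genes not called in the main fit, which had no call to lose. The 148 are therefore a larger share of the values that could lose one. A further 46 values, not called in either fit, changed sign. The hearts with all subunits above all factors numbered 12 in FPKM and 0 with normalised CPM per kilobase of annotated exon, an alternative chosen after seeing the data. Depth put the floor of 3 counts below the level of all Nduf genes.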
